A study of Mus musculus with 6 samples.

Results

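The genes described here encode the proteins of the cytosolic ribosome, measured in peritoneal macrophages that did or did not carry the mark of a p16 reporter. They were taken from the deposited table as the protein-coding rows whose symbol begins with Rpl or Rps and a number, or is Rpsa, Rplp0, Rplp1 or Rplp2, leaving out the S6 kinases. The rule found 94 genes among 54532. They comprised 77 main copies (46 of the large subunit and 31 of the small), 8 paralogs, 8 genes with a pseudogene name that the table lists as protein coding, and Rps19bp1, which encodes a protein that binds Rps19. Fau and Rack1 also encode ribosomal components, but their names fall outside the rule.

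All 6 libraries came from total RNA of F4/80+ cells washed from the peritoneal cavity of C57BL/6 mice aged 12 months, kept on standard food with no treatment named in the labels. Every mouse carried p16-Cre and the Rosa26-mTmG reporter, so both groups share these alleles. Without Cre the reporter makes tdTomato, and once Cre has acted it makes EGFP. Cells selected on magnetic beads for F4/80 were sorted by flow cytometry into EGFP cells, called p16High (3 libraries), and tdTomato cells, called p16Low (3 libraries). The reporter records that the p16 driver has been active at some time and does not measure p16 at harvest. Whether the libraries of a group came from separate or pooled animals is not stated.

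A ribosome joins a small subunit, which reads the messenger RNA, to a large subunit, which forms the peptide bonds. Each subunit holds a ribosomal RNA core and many small basic proteins, most of them present once per particle, and the genes for them are among the most highly expressed in any cell. Their messenger RNAs typically begin with a C followed by a run of pyrimidines, the 5′ terminal oligopyrimidine (TOP) motif, through which mTORC1 and LARP1 set how strongly they are translated.

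The TOP motif is a property that the choice by name did not use, so the annotated start sites were searched for it. Of the 94 genes, 66 matched the RefSeq promoter table (GRCm38.p6). A C at the annotated first base with at least 4 further pyrimidines was found for 13 of 57 main copies (22.8%) and for 2.64% of 16431 other protein-coding genes. An annotated start that lies some bases away from the true one hides the motif, so the share is a description of the annotation. Start windows of 30 bases, 15 on each side of the start, are shown for 6 genes whose values are given below or whose tract is long, with the pyrimidine tract from the first transcribed base in capitals. Rps6 lies at chr4:86857353-86857382 on the minus strand, Rps27 at chr3:90213634-90213663 (minus), Rpl38 at chr11:114668565-114668594 (plus), Rpl35a at chr16:33056467-33056496 (plus), Rpl15 at chr14:18270972-18271001 (minus) and Rplp2 at chr7:141447636-141447665 (plus).
Rps6: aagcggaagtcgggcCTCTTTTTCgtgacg
Rps27: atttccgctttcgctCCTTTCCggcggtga
Rpl38: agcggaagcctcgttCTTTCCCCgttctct
Rpl35a: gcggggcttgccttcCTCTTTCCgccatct
Rpl15: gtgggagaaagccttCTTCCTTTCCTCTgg
Rplp2: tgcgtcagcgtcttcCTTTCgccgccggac

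The paralogs Rpl7l1 (chr17:46782642-46782671, minus) and Rpl22l1 (chr3:28805493-28805522, plus) are also shown. No C-led tract of that length starts at their annotated first base. Most main copies searched, Rpl22 among them, also lacked such a tract, and the paralog Rps27rt had one of 6 bases. The lack is thus not particular to paralogs. In Rpl22l1 a run of pyrimidines directly follows the annotated first base, a G.
Rpl7l1: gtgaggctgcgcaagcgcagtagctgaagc
Rpl22l1: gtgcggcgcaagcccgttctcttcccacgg

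In the 300 bases around the start (250 before and 50 after), CCGGAAG on either strand was present for 24 main copies (42.1%) and for 13.2% of other protein-coding genes. The letters ATGGCGG on either strand were present for 9 main copies (15.8%) against 6.16%. TATAAA on either strand was present for 6 (10.5%) against 14.3%, and CTCTTTC on the sense strand, which can overlap the TOP tract, for 13 (22.8%) against 4.45%. These shares were not tested against each other, and a match says only that the letters are there.

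The libraries held 16.52 to 20.87 M reads, worked back from the deposited FPKM (fragments scaled to transcript length and library total), and 16831 to 18211 genes were above 0. The macrophage markers Adgre1 (F4/80), Csf1r, Lyz2 and Cd14 were abundant in each library, and the 7 macrophage markers together took 10.51% to 11.58% of the reads. Markers of mast cells, eosinophils, mesothelium, and T and NK cells were at or near 0. The 3 mast cell markers summed to 0.235, 0.0519 and 0 FPKM in p16Low and 0.400, 1.01 and 1.94 FPKM in p16High. The 3 eosinophil markers summed to at most 0.415 FPKM, and the 3 mesothelial markers to 0 in all but p16High replicate 3 (0.123 FPKM). The 5 T and NK cell markers summed to at most 0.401 FPKM. The summed markers of 2 other cell types were not near 0. The 6 B cell markers summed to 193.3, 214.8 and 192.7 FPKM in p16Low and 110.2, 103.7 and 173.6 FPKM in p16High. The 4 neutrophil markers summed to 30.04, 49.93 and 28.15 FPKM in p16Low and 31.83, 22.33 and 30.87 FPKM in p16High. The neutrophil sum was thus highest in p16Low replicate 2 and lowest in p16High replicate 2. Nearly all of it came from 1 gene, for example 29.95 of 30.04 FPKM in p16Low replicate 1. Only 2 of the 4 neutrophil markers were above 0 in any library, so the sum does not show neutrophils. Of the defining markers, Kit (mast cells), Epx (eosinophils) and Msln (mesothelium) were listed at 0 in all 6 libraries. The part of these cells in the ribosomal protein values was not tested. p16Low replicate 2 stood apart, at 48.87 on a first principal component that held 55.6% of the variance, with the other 5 libraries between -15.89 and -4.70. Results are therefore given with and without it.

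Ribosomal protein genes took 2.24%, 3.96% and 2.37% of the reads in p16Low replicates 1, 2 and 3, and 2.28%, 1.94% and 2.25% in p16High replicates 1, 2 and 3. p16Low replicate 2 was the highest and p16High replicate 2 the lowest, and the other 4 libraries lay between 2.24% and 2.37%. The group means were 2.86% ± 0.960 (SD, n = 3) in p16Low and 2.16% ± 0.188 (SD, n = 3) in p16High, a ratio of 0.755. Without p16Low replicate 2 the ratio was 0.936. In bulk RNA, fewer cells with a high ribosomal output and less such RNA per cell cannot be told apart. Transcripts of all other genes fill the rest of each library, so a share cannot give the amount of ribosomal protein mRNA per cell.

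No ribosomal protein gene passed the test between p16High and p16Low. The test was limma on log2(FPKM + 1) with Benjamini-Hochberg adjustment at 0.05 over the 10895 genes that reached an FPKM of 1 in at least 3 libraries. Of the 94 members 83 were tested and 0 were called, beside 0.89% of all genes tested (97 genes, 0.716% lower and 0.174% higher in p16High). At an unadjusted p under 0.05 there were 7 members (8.43%, against 7.22% of all genes), and limma-voom on the recovered reads also called 0. Without p16Low replicate 2, 0 members were called beside 2.76% of all genes (1.87% lower in p16High), and 8 (9.64%) had an unadjusted p under 0.05, against 12.6% of all genes. The smallest adjusted p of a member was 0.442 (Rpl27-ps3) with 6 libraries.

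The fold changes of the members leaned to one side all the same. The log2 fold change of p16High against p16Low was negative for 82 of 83 tested members (98.8%), against 41.9% of all tested genes. Its median was -0.38 over the members and 0.05 over all tested genes, and the members ranged from -1.08 (Rpl17) to 0.12 (Rpl7l1). Without p16Low replicate 2 the median was -0.11 (all genes -0.02), with 74 members negative (89.2%, against 54.6%). Leaving out both libraries numbered 2 was tried after their values were seen. The median was then -0.04 over the members and -0.02 over all tested genes. Of the 83 members 54 were negative, beside 54.8% of all tested genes, and 0 were called, beside 2.89% of all genes.

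**Figure D1:**
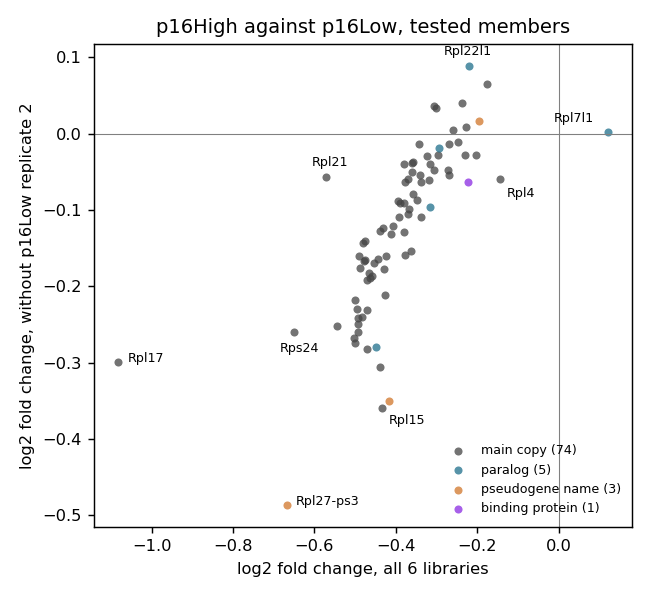
Log2 fold change of p16High against p16Low for the 83 tested members, with all 6 libraries (x axis) and without p16Low replicate 2 (y axis); each point is a gene, coloured by class. Nearly all points lie left of 0 on the x axis (median -0.38) and move towards 0 on the y axis (median -0.11), while a few, Rpl15 (-0.43 and -0.36) among them, move little. Rpl27-ps3, the lowest on the y axis, passed the filter only through p16Low.

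The individual libraries show the same order gene after gene. p16Low replicate 2 held the highest value of 81 of 83 tested members (97.6%, against 24.4% of all tested genes), and p16High replicate 2 the lowest value of 68 (81.9%, against 14.5%). The exceptions for the highest value were Rpl7l1 and Rpl15. Relative to the mean of p16Low replicates 1 and 3, p16Low replicate 2 had a median ratio of 1.77 over the 74 tested main copies and 0.848 over all tested genes. The ratio lay between 1.5 and 2.1 for 66 of the 74. It was below 1.5 for Rpl15 (1.15), Rpl4 (1.19), Rpl7a (1.33), Rpl3 (1.44) and Rpl30 (1.48), and above 2.1 for Rps24 (2.25), Rpl21 (3.03) and Rpl17 (7.59). At least a 1.5-fold ratio was found for 74 of 83 members (89.2%) and for 10.2% of all tested genes.

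p16High replicate 2 departed less, in the opposite direction. Its ratio to the mean of p16High replicates 1 and 3 had a median of 0.832 over the members, against 1.01 over all tested genes, and 75 members lay below 1. The median spread between replicates of a main copy, SD over mean, was 11% in p16High and 35.7% in p16Low. The order of the main copies by level was nevertheless close to the same in every pair of libraries, with Spearman correlations of 0.978 to 0.996 across 77 genes, a description, since genes are not independent replicates.

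**Figure D2:**
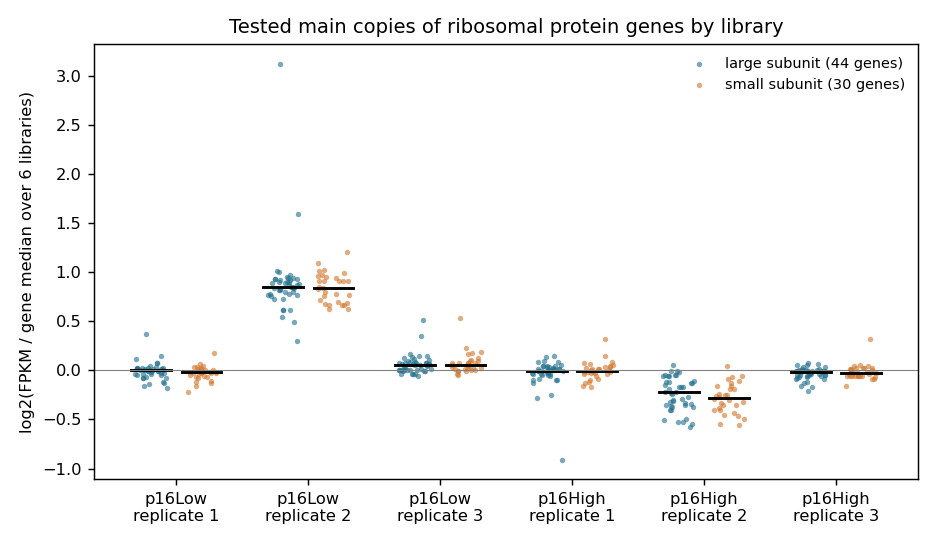
Level of each tested main copy in each library, as log2 of FPKM over the gene's median across the 6 libraries, for 44 large subunit genes (blue) and 30 small subunit genes (orange); black bars are medians. In p16Low replicate 2 both subunits sit well above 0 and in p16High replicate 2 both sit below it, while the other 4 libraries lie near 0.

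Large and small subunit genes showed much the same order of libraries. The summed FPKM of large subunit main copies over that of small subunit main copies was 1.13, 1.10 and 1.11 in p16Low replicates 1 to 3 and 1.11, 1.16 and 1.10 in p16High replicates 1 to 3. The groups overlapped, and p16High replicate 2, with the lowest share of ribosomal protein reads, had the highest ratio. The median level of a large subunit gene was 361, 666 and 359 FPKM in p16Low and 357, 279 and 357 FPKM in p16High. For the small subunit it was 435, 787 and 449.7 FPKM in p16Low and 441, 351 and 429 FPKM in p16High. The median log2 fold change was -0.39 for the large and -0.40 for the small subunit with 6 libraries, and -0.10 and -0.14 without p16Low replicate 2.

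The P stalk of the large subunit, which recruits and activates the elongation factors, is built from Rplp0, Rplp1 and Rplp2. Rplp0 (chr5:115559467-115563727, GRCm38), the scaffold of the stalk, stood at 953, 1509 and 1028 FPKM in p16Low and 994, 979 and 941 FPKM in p16High. Apart from p16Low replicate 2 these values lay within a narrow band that both groups share, and the log2 fold change was -0.23 (adjusted p = 0.759 by limma, SE 0.174), or -0.03 without that library. Rplp1, which dimerises with Rplp2, read 659.6, 1409 and 769 FPKM in p16Low and 784, 633 and 706 FPKM in p16High. Rplp2 (chr7:141447370-141451585) read 415, 797 and 482 FPKM in p16Low and 473, 362 and 443 FPKM in p16High. The log2 fold changes of these partners were -0.34 and -0.36 (adjusted p = 0.758 and 0.751 by limma) and shrank to -0.01 and -0.08 without p16Low replicate 2. For Rplp1, 60.0% of its possible reads of 50 bases also occur in another annotated gene, so its level is uncertain.

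The other most abundant members were Rps29, Rps14, Rpl32 and Rps9. Rps29, a small zinc-binding protein of the small subunit, had the highest mean level of all members, at 1569, 2558 and 1699 FPKM in p16Low and 1525, 1105 and 1663 FPKM in p16High. The groups overlapped, and the log2 fold change was -0.43 (adjusted p = 0.737 by limma, SE 0.217). Rps14, whose loss underlies the anaemia of the human 5q deletion, read 1072, 2201 and 1127 FPKM in p16Low and 1255, 995 and 1138 FPKM in p16High. Rps9, a protein of the small subunit body, read 1103, 1979 and 1178 FPKM in p16Low and 1217, 1078 and 1142 FPKM in p16High. Rpl32, of the large subunit, read 1177, 2083 and 1229 FPKM in p16Low and 1158, 944 and 1140.1 FPKM in p16High. Of the 3, only Rpl32 had no overlap between groups, with its lowest p16Low value 1177 and its highest p16High value 1158. Their log2 fold changes were -0.30 for Rps14, -0.26 for Rps9 and -0.42 for Rpl32, with adjusted p of 0.775, 0.767 and 0.737 by limma. Without p16Low replicate 2 they were 0.03, 0.01 and -0.16, so the sign turned for Rps14 and Rps9.

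Rps3, Rps2 and Rpsa of the small subunit were also highest in p16Low replicate 2, but Rps2 was not lowest in p16High replicate 2. Rps3, which lines the entry of the channel and also has roles in DNA repair and NF-kB signalling, read 458, 738 and 489 FPKM in p16Low and 472, 443 and 452 FPKM in p16High. Rps2, its neighbour, read 128, 219 and 138 FPKM in p16Low and 138, 142 and 137 FPKM in p16High, so the p16High libraries and p16Low replicate 3 were nearly equal. Rpsa, the small subunit protein also known as the laminin receptor precursor, read 194, 388 and 290.4 FPKM in p16Low and 207, 192 and 193 FPKM in p16High. In Rpsa both p16Low replicates 2 and 3 lay above all p16High libraries, and replicate 1 did not. Its log2 fold change was -0.50 (adjusted p = 0.695 by limma, SE 0.223) and -0.27 without p16Low replicate 2. For Rps3 it was -0.27 (adjusted p = 0.751 by limma) and for Rps2 -0.17 (adjusted p = 0.803 by limma), and without that library -0.05 and 0.07.

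Several members are known for roles in signalling or disease. Rps6 (chr4:86854660-86857412), the substrate of the S6 kinases downstream of mTORC1, read 307, 500.1 and 304 FPKM in p16Low and 315, 292 and 316 FPKM in p16High. With p16Low replicate 2 its log2 fold change was -0.23 (adjusted p = 0.773 by limma, SE 0.193), and without it 0.01, so 5 of the 6 libraries lay between 292 and 316 FPKM. Rpl5 and Rpl11 form, with 5S RNA, a complex that can bind Mdm2 and so stabilise p53 when ribosome assembly fails. Rpl5 read 215, 388 and 193 FPKM in p16Low and 203, 191 and 192 FPKM in p16High, with a log2 fold change of -0.37 (adjusted p = 0.751 by limma). Rpl11 read 343, 677 and 339 FPKM in p16Low and 309.7, 272 and 337 FPKM in p16High, with a log2 fold change of -0.49 (adjusted p = 0.737 by limma). The groups did not overlap for Rpl11, but the lowest p16Low and highest p16High values were 339 and 337 FPKM.

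Rps19, the gene most often mutated in human Diamond-Blackfan anaemia, read 758, 1547 and 858 FPKM in p16Low and 860.0, 672 and 795 FPKM in p16High, with overlapping groups and a log2 fold change of -0.38 (adjusted p = 0.751 by limma). Rpl38, which in mouse embryos is needed for translation of certain Hox mRNAs, read 391, 655 and 427 FPKM in p16Low and 385, 275 and 365 FPKM in p16High. The groups did not overlap, by a margin of 391 to 385 FPKM, and the log2 fold change was -0.50 (SE 0.213, unadjusted p = 0.0442 and adjusted p = 0.685 by limma) and -0.27 without p16Low replicate 2. Rpl13a, which in human monocytes is released from the ribosome to silence inflammatory mRNAs, was listed far lower, at 17.1, 36.2 and 17.5 FPKM in p16Low and 18.5, 18.7 and 16.2 FPKM in p16High. Its log2 fold change was -0.31 (adjusted p = 0.780 by limma) and 0.04 without p16Low replicate 2. In the annotation 35.4% of its exonic bases overlap Gm45713 on the same strand, so its level is uncertain.

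The lowest log2 fold changes belonged to Rpl17, Rpl27-ps3, Rps24, Rpl21 and Rpl35a. Rpl17, a large subunit protein that reaches into the peptide tunnel, read 1.82, 12.2 and 1.41 FPKM in p16Low and 0.749, 1.25 and 1.41 FPKM in p16High, from 26, 198 and 22 reads against 11, 19 and 18. Its fold change of -1.08 (adjusted p = 0.737 by limma, SE 0.561) rests on p16Low replicate 2, and was -0.30 without it. Rps24, also mutated in Diamond-Blackfan anaemia, read 214, 504 and 234 FPKM in p16Low and 224, 149 and 196 FPKM in p16High, with a log2 fold change of -0.65 (adjusted p = 0.723 by limma, SE 0.307). Rpl21, of the large subunit, read 17.2, 52.7 and 17.6 FPKM in p16Low and 17.5, 14.6 and 18.3 FPKM in p16High. Rpl35a, another gene of that anaemia, read 55.6, 104 and 56.3 FPKM in p16Low and 56.8, 37.5 and 48.2 FPKM in p16High. In each of the 3, the p16Low and p16High values overlapped, and without p16Low replicate 2 the log2 fold changes were -0.26 for Rps24, -0.06 for Rpl21 and -0.25 for Rpl35a.

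At the other end stood Rpl4 and Rpl3, core proteins of the large subunit that lie at the peptide tunnel and close to the peptidyl transferase centre. Rpl4 read 769.6, 953 and 825 FPKM in p16Low and 782, 770.0 and 743 FPKM in p16High, a log2 fold change of -0.14 (adjusted p = 0.773 by limma, SE 0.122). Rpl3 read 389, 578 and 414 FPKM in p16Low and 402, 394 and 384 FPKM in p16High, a log2 fold change of -0.20 (adjusted p = 0.760 by limma). Both had overlapping groups, and p16Low replicate 2 exceeded the others by less than for most members.

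Rpl15, of the large subunit, was picked with its values known, since its fold change was the lowest of the tested main copies when p16Low replicate 2 was left out. It read 99.97, 139 and 142 FPKM in p16Low and 98.8, 90.8 and 88.6 FPKM in p16High. Its highest value was in p16Low replicate 3, and p16Low replicate 1 lay just above the p16High libraries. The log2 fold change was -0.43 (adjusted p = 0.551 by limma, SE 0.160) with 6 libraries and -0.36 (adjusted p = 0.174, SE 0.119) without p16Low replicate 2. Across all members, p16Low lay wholly above p16High for 21 of 83 (25.3%, against 7.45% of all tested genes). Without p16Low replicate 2 the count was also 21, and the share of all tested genes was 16.9%. That count could hardly change, since p16Low replicate 2 was the highest library for 81 of the 83. Leaving out the highest p16Low value does not move the lowest. The reverse, p16High wholly above p16Low, was found for 0 members and 8.40% of all tested genes. For members highest in p16Low replicate 2 the reverse was not possible. Without p16Low replicate 2 the main copies ranged from -0.36 (Rpl15) to 0.07 (Rps2) in log2 fold change, with 58 of 74 within 0.2 of 0.

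Paralogs can replace their main copy in some tissues. Rps27l, a p53 target in human and mouse cells, read 535, 841 and 528 FPKM in p16Low and 538, 433 and 528 FPKM in p16High, while its main copy Rps27 read 867, 1464 and 959 FPKM in p16Low and 937, 673 and 957 FPKM in p16High. Both followed the order of the main copies, with log2 fold changes of -0.32 and -0.34 (adjusted p = 0.748 and 0.751 by limma). Rpl22l1, which in mouse is held down by its main copy Rpl22, read 99.3, 184 and 94.1 FPKM in p16Low and 108, 86.3 and 117 FPKM in p16High, and Rpl22 read 159.9, 302 and 157 FPKM in p16Low and 158, 124 and 156 FPKM in p16High. The log2 fold changes were -0.22 for Rpl22l1 and -0.43 for Rpl22 (adjusted p = 0.806 and 0.747 by limma), and 0.09 and -0.12 without p16Low replicate 2. Rps27rt, a further copy of Rps27 picked with its values known, read 27.5, 37.8 and 25.2 FPKM in p16Low and 21.2, 18.2 and 25.9 FPKM in p16High, and shares 91.1% of its 50-base stretches with other genes. Rpl36al read 26.6 to 50.2 FPKM in p16Low and 25.5 to 29.9 FPKM in p16High, below its main copy Rpl36a at 199 to 371 and 151 to 199.9 FPKM.

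Rpl7l1 (chr17:46773907-46782672) was the exception among the paralogs. It read 135, 104 and 133 FPKM in p16Low and 132, 134 and 138 FPKM in p16High, so p16Low replicate 2 was its lowest library, at 0.777 of the mean of p16Low replicates 1 and 3. Its main copy Rpl7 read 504, 869.5 and 479 FPKM in p16Low and 458, 444 and 511 FPKM in p16High, with a ratio of 1.77. The log2 fold changes were 0.12 for Rpl7l1 (adjusted p = 0.804 by limma, SE 0.138) and -0.34 for Rpl7 (adjusted p = 0.750 by limma), or 0.00 and -0.06 without p16Low replicate 2.

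Paralogs known from muscle and testis were at or near 0. Rpl10l, of the testis, was listed at 0 in all 6 libraries, while its main copy Rpl10, needed for the joining of subunits, read 596 to 1113 FPKM. Rpl3l, of heart and skeletal muscle, did not exceed 0.198 FPKM, and Rpl39l, of the testis, lay between 0.358 and 1.27 FPKM, beside 267 to 697 FPKM for Rpl39. These 3 were not tested.

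The remaining untested members were 3 main copies, Rps10, Rpl24 and Rpl23a, and 5 genes with pseudogene names. Rps10 read 0.835, 1.61 and 0.417 FPKM in p16Low and 1.26, 0.644 and 0.848 FPKM in p16High, whereas the pseudogene Rps10-ps1 averaged 37.1 FPKM over the 6 libraries. Rpl23a read 0.0902 to 0.523 FPKM, whereas Rpl23a-ps3 averaged 47.2 FPKM. Rpl24 did not exceed 0.584 FPKM, and 47.0% of its exonic bases overlap Gm28037 on the same strand. Of the 77 main copies, 65 exceeded 100 FPKM in every library. Rpl17 had the lowest mean of the tested main copies, 3.15 FPKM, beside 0.935 FPKM for the untested Rps10. The part of reads shared with copies or overlapping genes in these levels was not tested. Of the 94 members, 89 share at least 1 stretch of 50 bases with another annotated gene, 12 share 50% or more of such stretches, and the median share was 20.9%.

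The 3 tested genes with pseudogene names were low. Rpl9-ps6 read 8.31, 11.3 and 5.75 FPKM in p16Low and 7.41, 7.17 and 6.48 FPKM in p16High. Rpl10-ps3 read 4.58, 4.62 and 3.30 FPKM in p16Low and 3.02, 2.33 and 3.23 FPKM in p16High, with no overlap. Rpl27-ps3 read 1.03, 2.12 and 1.25 FPKM in p16Low and 0.778, 0.323 and 0.510 FPKM in p16High, and it passed the filter only through p16Low, so a difference between its groups was built into its being tested. Their log2 fold changes were -0.20, -0.42 and -0.67, with adjusted p of 0.809, 0.720 and 0.442 by limma. All 3 share 89.2% or more of their 50-base stretches with other genes, so their reads cannot be assigned with certainty.

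Transcripts other than the members were read for the same pattern, from lists chosen by function and from pseudogenes chosen by name. Among cytosolic components outside the name rule, Fau read 345, 642 and 390.1 FPKM in p16Low and 370.1, 303 and 352 FPKM in p16High, and Rack1 304, 681 and 310.3 FPKM in p16Low and 346.5, 298 and 294 FPKM in p16High. Both were highest in p16Low replicate 2. The median ratio of p16Low replicate 2 to replicates 1 and 3 was 1.74 for 58 tested ribosomal protein pseudogenes, 1.67 for 10 snoRNA host genes, 1.47 for 8 other TOP mRNAs and 1.39 for 77 mitochondrial ribosomal protein genes. Reads of the pseudogenes may be mixed with those of the members they resemble, so their ratio is not independent of the members. The part of such reads was not tested. It was 1.23 for 8 elongation factors, 1.08 for 29 initiation factors, 0.875 for 54 genes of RNA polymerase I and ribosome biogenesis, 0.889 for 24 MYC and mTORC1 regulators and 0.827 for 14 genes of ribosome surveillance and p53. Cytosolic ribosomal protein genes thus lay at the high end of a graded series, while genes that build ribosomes were near the median of all genes, 0.848. The lists also differed in median transcript length. It was 701 bases for the members, 454 for the pseudogenes, 815 for snoRNA hosts and 1150 for mitochondrial ribosomal protein genes. For elongation factors it was 1170, other TOP mRNAs 1320, initiation factors 1430 and biogenesis genes 1520. Surveillance genes had 1990 and MYC and mTORC1 regulators 2420. The part of length in this order was not tested.

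None of these lists had a gene past the threshold with 6 libraries, beside 0.89% of all genes. Without p16Low replicate 2 the snoRNA host gene Snhg1, named because it passed, was called lower in p16High. It read 8.91, 11.5 and 7.91 FPKM in p16Low and 4.44, 5.30 and 4.86 FPKM in p16High, with a log2 fold change of -0.82 (adjusted p = 0.113 by limma) and -0.68 (adjusted p = 0.0424) without that library. On the list of other TOP mRNAs, Tpt1 was the most abundant. It read 728, 1533 and 736 FPKM in p16Low and 787, 711 and 765 FPKM in p16High. Eef1a1, which delivers tRNAs, is also a TOP mRNA but was listed with the elongation factors, and it was more abundant than Tpt1. It read 1934, 2149 and 2208 FPKM in p16Low and 1987, 1974 and 2039 FPKM in p16High. Tpt1 thus had its highest value in p16Low replicate 2, and Eef1a1 did not. Median log2 fold changes without p16Low replicate 2 were -0.01 for mitochondrial ribosomal proteins, -0.13 for other TOP mRNAs, -0.23 for snoRNA hosts and -0.07 for biogenesis genes.

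**Figure D3:**
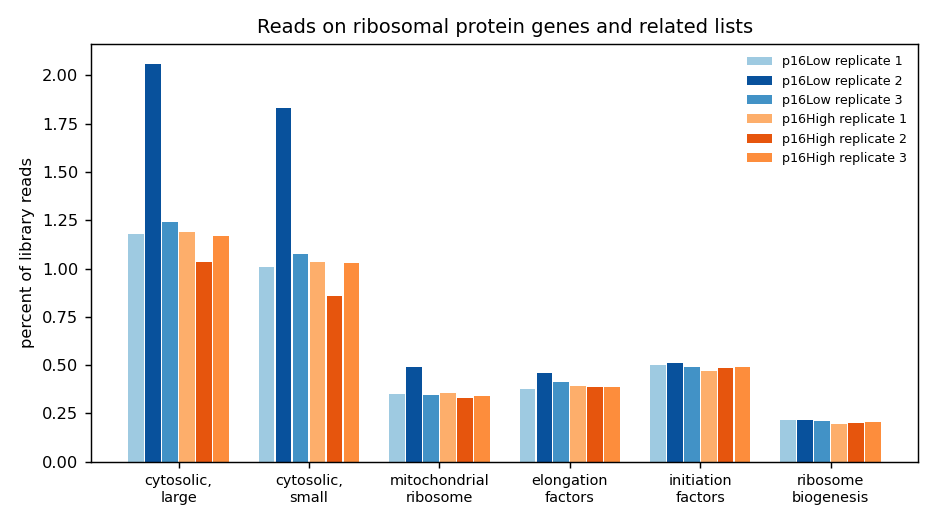
Percent of library reads on cytosolic ribosomal protein genes of each subunit (main copies) and on related lists, 1 bar per library (p16Low in blue, p16High in orange). p16Low replicate 2 is highest for large (2.06%) and small (1.83%) subunit genes and for mitochondrial ribosomal proteins (0.492%), and nearly level with the others for initiation factors and biogenesis genes.

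Ribosomal protein transcripts are short, and transcript length moved with the ratio of p16Low replicate 2 across the table. Over 10895 tested genes the Spearman correlation of length and ratio was -0.431. Among other genes under 500 bases (510 genes) the median ratio was 1.42, from 500 to under 1000 bases (1797 genes) 1.23, and from 1000 to under 2000 bases (4717 genes) 0.821. The members of the same length classes had 1.68 (11 genes), 1.78 (60 genes) and 1.79 (12 genes). Within the 74 main copies the correlation with length was 0.00721. In p16High replicate 2 the medians of the members were 0.749, 0.840 and 0.892 in these classes, beside 0.857, 0.972 and 1.02 for other genes, and the correlation with length over main copies was 0.412. The part of transcript length in these ratios was not tested.

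**Figure D4:**
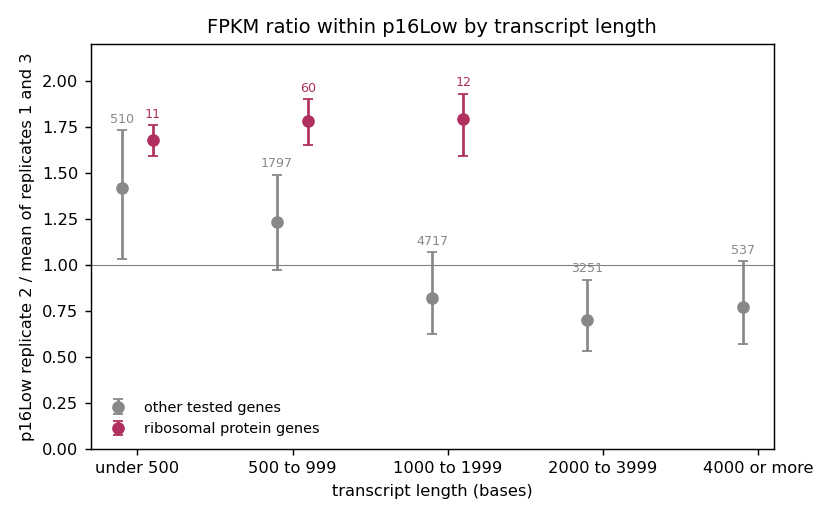
Ratio of FPKM in p16Low replicate 2 to the mean of p16Low replicates 1 and 3 by transcript length; points are medians, bars run from the lower to the upper quartile, and numbers are genes per class. The medians of other genes (grey) go from 1.42 under 500 bases down to 0.698 from 2000 to under 4000 bases, while ribosomal protein genes (red) stay at 1.68 to 1.79.

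Other measures moved with p16Low replicate 2 or with the groups. The 7 macrophage markers had ratios of p16Low replicate 2 to replicates 1 and 3 from 0.433 to 1.21, with a median of 0.808. Mertk, Csf1r, Itgam and Adgre1 were lowest of all libraries in p16Low replicate 2, Fcgr1 and Lyz2 were highest there, and the read share of the list in it (11.49%) lay between those of p16Low replicates 1 and 3. Adgre1, which encodes F4/80 and was picked with its values known, read 2374, 1235.5 and 2326 FPKM in p16Low and 2425, 2596 and 2751 FPKM in p16High. Mitochondrial genes took 0.670%, 1.08% and 0.684% of the reads in p16Low and 0.597%, 0.545% and 0.648% in p16High, so p16Low replicate 2 was highest and every p16Low library lay above every p16High library. Of 11 tested mitochondrially encoded protein genes, 11 had a negative log2 fold change, beside 41.9% of all tested genes. An unadjusted p under 0.05 by limma was reached by 8 of them, beside 7.22% of all tested genes. With 6 libraries limma called 0, beside 0.89%. Without p16Low replicate 2 it called 3 lower in p16High, beside 1.87%. B cell markers took 0.0194%, 0.0196% and 0.0196% of the reads in p16Low and 0.0102%, 0.0101% and 0.0161% in p16High. The 7 dividing-cell markers took 0.0237%, 0.0206% and 0.0225% in p16Low and 0.00878%, 0.00792% and 0.00920% in p16High. With 6 libraries 5 of them were called lower in p16High, beside 0.716% of all tested genes. The summed read shares of B cell and dividing-cell markers thus separated the groups. As sums they did not set p16Low replicate 2 far apart from the other p16Low libraries. Single dividing-cell markers differed there, with ratios to replicates 1 and 3 from 0.63 to 1.86 and a median of 0.727. For the 5 tested B cell markers the ratios ran from 0.805 to 1.26, with a median of 1.04. The part of these measures in the ribosomal protein values was not tested.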

How the data were processed

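The deposited table holds FPKM values per gene, computed by the authors. Per the submitters' processing notes, HTSeq 0.6.1, TopHat2 2.0.12 and Bowtie2 2.2.3 were used; the build was not given in the sources used here. GENCODE M21 (GRCm38) held 54494 of the gene IDs, 98.33% with the same start and end. Whole reads were recovered from FPKM, transcript length and library total: 96.18% of 22566 genes above 0 were whole in every library within 0.001 read at the annotated mean length, and 100% after a search over lengths. Of the members above 0, 87 of 93 were whole at the annotated length, and 6 allowed several lengths, so their reads are uncertain. At these depths 3 reads in a library correspond to 0.144 to 0.182 CPM (counting error only).

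limma 3.58.1 (R 4.3.3) was fitted to log2(FPKM + 1), group as the only term and empirical Bayes moderation with a trend. The pseudocount understates changes of low genes. The p-values measure only the spread between these libraries, which may be technical. On data simulated at these means, 92 of 100 genes changed 2-fold and 100 of 100 changed 4-fold were recovered among 10895, with 14 false calls. The simulation gave every gene the same fixed dispersion and held no outlying library. In the data the median SD over mean of a main copy was 35.7% in p16Low and 11% in p16High. The simulated recovery therefore does not give the power of the test for the members. No set test was run. Alternatives were median-of-ratios scaling, other filters and pseudocount, limma-voom, the replicate number as a block, and each library left out.

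Members and lists were chosen with earlier results of these data known. Named genes were the stalk proteins and Rpsa, the 5 highest and 3 lowest tested members, the 5 largest and 5 smallest log2 fold changes, the paralogs whose names end in l, l1 or al with their main copies, 7 members with known roles, and the 2 most abundant genes of a related list. Rpl7a, Rpl30, Rpl15, Rps3a1, Rps27rt, Snhg1, the cell markers and the pseudogenes outside the members were picked with their values known. Promoter sequences are RefSeq's (GRCm38.p6). Some items are not reported here.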

Additional observations from a re-analysis of the deposited data

How the results depend on the processing

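The count of ribosomal protein genes past the threshold was 0 under every alternative run. With limma-voom, the replicate block, a pseudocount of 0.1, a filter of 1 CPM, no filter or median-of-ratios scaling, the log2 fold changes of all named genes tested kept their sign. Whether same-numbered libraries come from the same mice is not stated in the labels. The correlations of their deviations from the group means were -0.189, -0.173 and 0.0143, beside -0.196 to 0.244 for libraries with different numbers. With 3 libraries per group and p16Low replicate 2 far from the others, these correlations constrain each other. They can therefore neither show nor exclude pairing. The fit with the replicate block called 0 members and 67 genes in all. All genes past the threshold numbered 97, against 9 with no filter, 17 to 301 with 1 library left out and 315 with both libraries numbered 2 left out (chosen after seeing the data). With 1 library left out, the median log2 fold change of the members ran from -0.558 to -0.110, and large minus small subunit, 0.0118 with 6 libraries, from -0.00982 to 0.0439. Summed FPKM of the members, p16High over p16Low, was 0.750, and 0.676 to 0.931 with 1 library left out. Without both libraries numbered 2 the median was -0.0362 and the ratio 0.984. Unadjusted p under 0.05 was reached by 36 members without p16Low replicate 1, 23 without p16Low replicate 3 and 0 without p16High replicate 2, against 7 with all 6. The share of all tested genes at that threshold was not computed for these reduced fits. Their counts therefore cannot be read as a result about the members. Leaving out p16Low replicate 1 or 3 also gives p16Low replicate 2 more weight in its group. Log2 fold changes whose sign turned with 1 library left out, in each case p16Low replicate 2, ran from -0.486 to 0.033 (Rps14), -0.416 to 0.005 (Rps9), -0.417 to 0.016 (Rpl9-ps6), -0.322 to 0.066 (Rps2), -0.392 to 0.089 (Rpl22l1), -0.350 to 0.008 (Rps6) and -0.485 to 0.036 (Rpl13a). Without both libraries numbered 2 the sign turned for Rplp1 (0.063), Rplp2 (0.033), Rps14 (0.121), Rps9 (0.048), Rpl21 (0.037), Rpl9-ps6 (0.002), Rps2 (0.049), Rpl22l1 (0.214), Rpl36al (0.036), Rps27l (0.004), Rps27 (0.054), Rps6 (0.045), Rpl13a (0.001) and Rps19 (0.036). The cause was not tested.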

Other observations

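Rps3a1, a small subunit gene chosen after its values were seen, read 547, 870.2 and 515 FPKM in p16Low and 476, 465 and 661 FPKM in p16High, and its pseudogene Rps3a2 read 33.9, 64.8 and 33.2 FPKM in p16Low and 35.6, 31.7 and 1.30 FPKM in p16High. In p16High replicate 3 the gene was at its highest in the group and the pseudogene at its lowest of all 6 libraries. In Rps3a1, 71.0% of the stretches of 50 bases also occur in another annotated gene.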
